A study of Mus musculus with 4 samples.

Results

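The Cebpb locus is described here as the ESR1 peaks in the window of 1 Mb on mouse chromosome 2 that holds the gene. Members were chosen by the position of their summit, from 167000000 to 167999999 in the mm9 build, in either of the deposited peak lists. The rule found 26 of the 6932 liver peaks and 43 of the 24836 uterus peaks, or 69 of 31768 in all. The window was proposed with its peak counts known, so those counts are given as a description and are not tested. The gene itself lies at about 167.51 Mb. That position is rounded to 10 kb and was not checked against an mm9 annotation, so every distance from Cebpb below carries a rounding of 5 kb either way. Distances are positive toward higher coordinates.

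The series mapped binding of the estrogen receptor alpha, ESR1, by chromatin immunoprecipitation and sequencing (ChIP-seq). One group was liver and the other uterus, both from C57BL/6 female mice (C57BL/6J in the protocol) aged 8 weeks, with frozen tissue and no hormone treatment named in the labels. Each tissue had 1 ESR1 library and 1 input control, and the control entered only through the authors' peak calling. The ESR1 libraries held 20016495 (liver) and 22298008 (uterus) unique tags, so depth was similar, and with 1 library per tissue the spread between animals is unknown.

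Cebpb encodes C/EBP beta, a transcription factor with a basic region and a leucine zipper that binds DNA as a dimer. In liver it is known for driving acute-phase genes in inflammation and for its part in regeneration after injury. In uterus it is known as a steroid-responsive gene that the stroma needs for decidualisation, the change that prepares it for an embryo. ESR1 binds DNA directly at estrogen response elements, inverted repeats of a short core, or through other DNA-bound factors, and most of its sites in the genome lie away from promoters.

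In the RefSeq gene table of the GRCm38.p6 build, used here only for gene order, the protein-coding genes next below Cebpb are Tmem189, Ube2v1, Snai1 and Rnf114. Those next above it are Ptpn1, Ripor3 and Pard6b. Snai1 encodes a repressor known for its role in epithelial to mesenchymal transition, and Ptpn1 a tyrosine phosphatase that acts on the insulin receptor. Peaks were not assigned to these genes, because no mm9 annotation was used and coordinates were not converted between builds.

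The Cebpb promoter is shown because the peaks closest to the given position of the gene, which were liver peaks, lie within 10 kb of it. The letters are the 250 bases before the start of the gene, RefSeq, GRCm38.p6, chr2:167688665-167688914, plus strand. These coordinates belong to that build and cannot be compared with the mm9 positions of the peaks. Capitals mark the estrogen response core GGTCA, which reads TGACC on the other strand, and the core of the cAMP response element, TGACG or in reverse CGTCA.
Cebpb promoter: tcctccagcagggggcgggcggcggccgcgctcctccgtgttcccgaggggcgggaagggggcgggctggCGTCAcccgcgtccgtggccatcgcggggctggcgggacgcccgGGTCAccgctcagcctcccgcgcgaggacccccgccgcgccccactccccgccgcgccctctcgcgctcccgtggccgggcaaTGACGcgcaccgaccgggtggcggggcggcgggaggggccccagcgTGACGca
The estrogen response core occurred 1 time, beginning 136 bases before the start. The cAMP response core occurred 3 times, beginning 180, 53 and 7 bases before it. The complete inverted repeat GGTCANNNTGACC was not among these letters. Of the 32851 promoters of the table, searched over the same length and on both strands, 35.2% held the estrogen response core, 17.8% the cAMP response core and 0.0639% the complete repeat. G and C made up 81.6% of the Cebpb letters, against a median of 52.4% over all promoters. These matches describe letters only and do not show binding.

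The window was among the densest of the genome in both lists. It held 26 liver peaks (exact Poisson interval 17.0 to 38.1), against a median of 1 per window of 1 Mb, and 43 uterus peaks (31.1 to 57.9), against a median of 7. Of 2644 such windows, 0.113% had at least as many liver peaks and 0.832% at least as many uterus peaks, this window included. Windows without a peak in either list, such as the first ones of chromosome 2, enter these shares and the medians. By liver count 1 window stood above it, on chromosome 14 from 26 to 27 Mb with 29 liver and 53 uterus peaks. A window on chromosome 17 from 46 to 47 Mb matched it with 26 liver and 37 uterus peaks. The adjoining windows held fewer peaks, though still more than the medians: 4 liver and 21 uterus peaks in the megabase below, and 3 and 11 in the megabase above. The next ones out held 10 liver and 30 uterus peaks on the lower side and 4 and 31 on the upper side. Liver peaks made up 37.7% of the window's peaks (Wilson interval 27.2 to 49.5), against 21.8% of the combined lists. The window was among those with the most liver peaks, and in the other 5 windows with the most liver peaks this share was 35.4 to 55.8%, with only 1 of the 5 below 37.7%. All intervals are 95% intervals that cover counting error only. Since the window was proposed with its counts known, they do not test its density or its liver share.

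**Figure D1:**
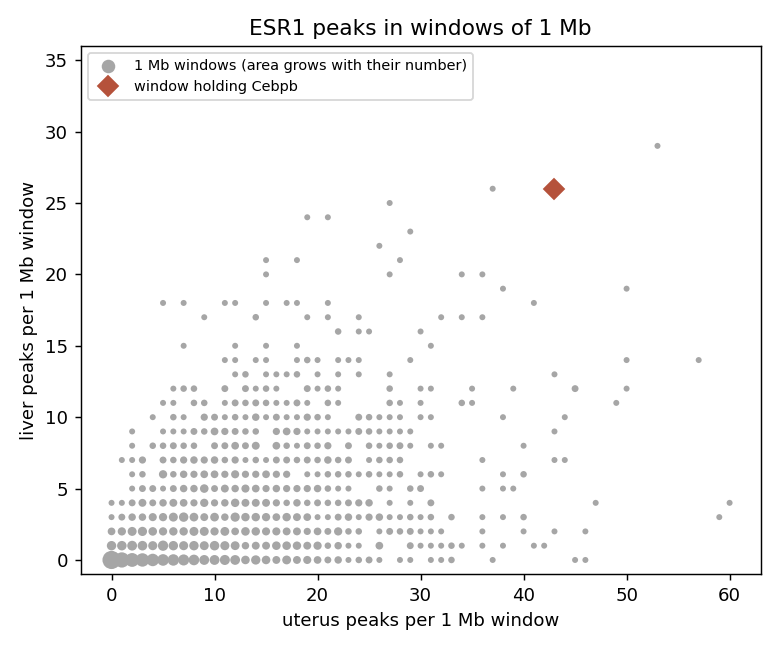
Number of uterus peaks (horizontal) and liver peaks (vertical) in each of 2644 windows of 1 Mb, with the window holding Cebpb as a diamond at 43 and 26. Grey points are the other windows, larger where several share the same counts, and only 1 lies above the diamond.

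The peaks closest to the given position of Cebpb were liver peaks. Within 10 kb of it the liver list had 3 peaks with 230 tags in sum, and the uterus list had none. This count rests on the rounded position: with Cebpb 5 kb higher the nearest uterus summit is 8.6 kb away, which gives 3 liver peaks and 1 uterus peak within 10 kb, and with Cebpb 5 kb lower there is 1 liver peak and no uterus peak. At all 3 positions the nearest summit was a liver one. The first ran from 167513040 to 167513987, with its summit at +3.4 kb, 96 tags (exact Poisson interval up to 117) and a fold enrichment over control of 15.96. The second ran from 167515319 to 167515807, with its summit at +5.6 kb. It held 85 tags at 27.82-fold, and 95.8% of the liver list had a lower enrichment. The third, from 167519447 to 167520192 at +9.9 kb, held 49 tags at 5.15-fold, and only 0.447% of the liver list was less enriched. The group thus joined one of the better enriched liver peaks with one of the least enriched, 4.25 kb apart. On the lower side of the given position the nearest liver summit was at -24.5 kb, in a peak from 167485185 to 167485738 with 42 tags. With Cebpb 5 kb higher, the summit at +3.4 kb would itself lie on the lower side.

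The nearest uterus summits flanked this liver group on both sides. Above, a weak uterus peak from 167523305 to 167523862 had its summit at +13.6 kb, 38 tags and 9.24-fold enrichment. It lay 3.73 kb from the third liver summit without overlapping that peak. Below, a uterus peak from 167475831 to 167476474 at -33.8 kb held 101 tags at 50.11-fold, which was higher than 94.5% of the uterus list. Within 50 kb of the position lay 5 liver and 5 uterus peaks, but 1 of the liver peaks was at -50.0 kb, and with Cebpb 5 kb higher the counts are 4 and 5. At the given position none of these 10 peaks overlapped a peak of the other tissue. In the whole lists 23.7% of liver and 6.58% of uterus peaks did. At these shares few overlaps would be looked for among 5 liver and 5 uterus peaks, so their absence is not read as a trait of the locus. Absence from a list means that no peak passed the authors' p cutoff of 1e-10, and signal under that cutoff is not in the lists.

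**Figure D2:**
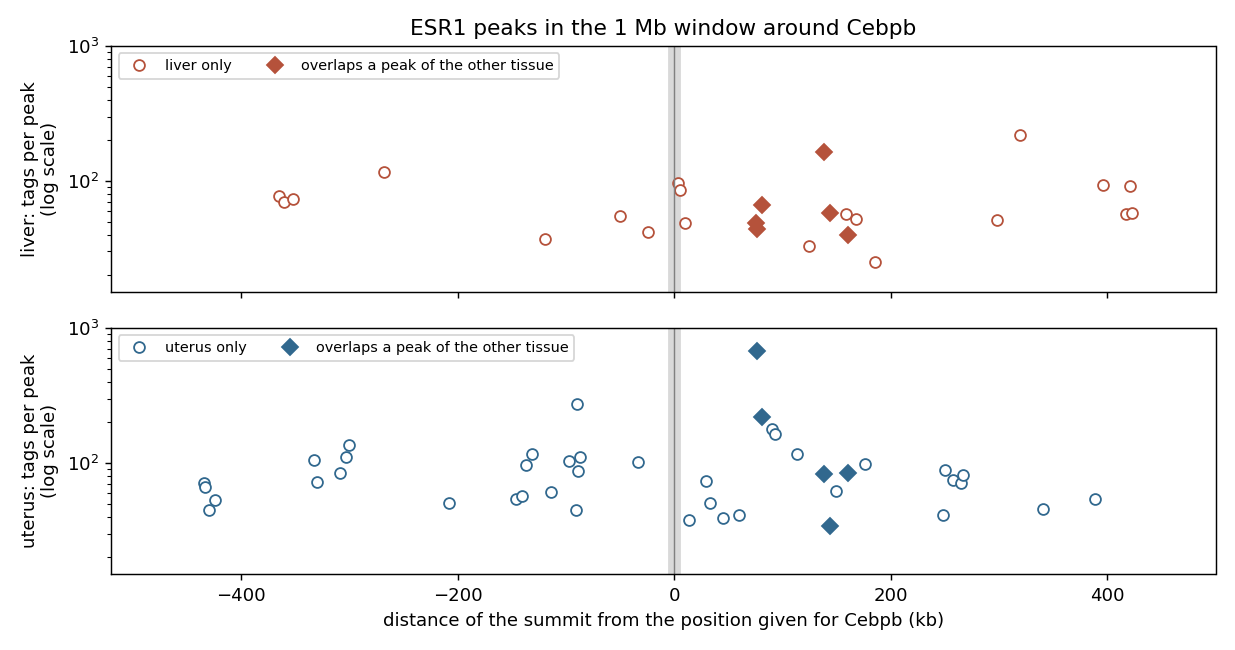
Tags per peak (vertical, log scale) against the distance of the summit from the position given for Cebpb in kb (horizontal), for 26 liver peaks (upper panel) and 43 uterus peaks (lower panel). Filled diamonds overlap a peak of the other tissue, open circles do not, the grey band is the rounding of the given position, and the filled diamonds all lie between +75.6 and +160.3 kb.

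Peaks shared by both tissues were all on the higher-coordinate side of Cebpb. Peaks were counted as shared where a liver and a uterus peak had at least 1 bp in common. By this rule 6 of 26 liver peaks were shared, or 23.1% (Wilson interval 11.0 to 42.1), against 23.7% of the whole liver list. In uterus 5 of 43 were shared, or 11.6% (5.07 to 24.5), against 6.58% of the whole list. The window's sharing was therefore near the background in liver, and in uterus the interval of the members includes the background. In the other 5 windows with the most liver peaks, the shared part of the uterus peaks was higher, at 18.9 to 31.6%. For their liver peaks it was 20.8 to 34.5%. These differences between windows were not tested. At the given position, 6 of the 19 liver peaks above Cebpb were shared and none of the 7 below it. With Cebpb 5 kb higher the liver peak at +3.4 kb, which was not shared, would count as below. In uterus 5 of 22 were shared above and none of 21 below. At the whole-list shares few shared peaks would be looked for below, so their absence is not read as a trait of that side. The shared peaks all lay in 1 stretch, between +75.6 and +160.3 kb.

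The widest site of the window was shared and had many more tags in uterus. The uterus peak ran from 167585019 to 167587699, over 2681 bp, with its summit at +76.4 kb, 675 tags and 61.49-fold enrichment. Only 31 of the 24836 uterus peaks held more tags, and this peak held 15.6% of all uterus peak tags in the window. By fold enrichment it ranked 851st in the uterus list. Per kb of peak it held 251.8 tags, fewer than the 339.5 of the uterus-only peak at -89.9 kb. Its MACS score was exactly 3100, a value that 279 uterus peaks share. In liver the same stretch was called as a pair of separate peaks, from 167585320 to 167585861 with 49 tags at 15.03-fold and from 167586063 to 167586682 with 44 tags at 12.51-fold. The liver summits were 736 and 7 bp from the uterus summit. Per 1000000 unique tags, the uterus peak had 30.3 (exact Poisson interval 28.0 to 32.6), and the liver peaks had 2.45 (1.81 to 3.24) and 2.20 (1.60 to 2.95), or 4.65 in sum. The uterus peak is also far wider than either liver peak. Per kb of peak and scaled to depth it stood 2.50 and 3.19 times above them.

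Another shared site with more uterus tags lay just above it. The uterus peak from 167590265 to 167591285 at +80.9 kb held 219 tags at 26.99-fold. The liver peak from 167590425 to 167591152 held 66 tags at 7.82-fold, and the summits were 168 bp apart. The depth-scaled ratio of uterus to liver tags was 2.98, with an exact conditional interval of 2.25 to 3.99. The uterus peak was the wider one here too, and per kb the ratio was 2.12.

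At the next shared sites the order of the tissues turned round. The liver peak from 167648359 to 167649377 at +138.7 kb held 163 tags at 18.57-fold, more than 96.8% of the liver list. The uterus peak there, from 167648385 to 167649379, held 83 tags at 14.22-fold, and the summits were 3 bp apart. Scaled to depth, liver had 2.19 times the uterus tags (1.67 to 2.89), and since the peaks were of nearly equal width the ratio per kb was close to that. A second site with more liver tags followed at +143.9 kb, with 58 tags from 167653639 to 167654333 in liver and 34 tags from 167653655 to 167654103 in uterus. Its summits were 46 bp apart and its depth-scaled ratio of liver to uterus tags was 1.90 (1.22 to 2.99). The liver peak was the wider one there, and per kb the ratio of uterus to liver was 0.815.

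The last shared site, at +160.2 kb, again had more tags in uterus. The liver peak from 167669917 to 167670376 held 40 tags at 12.24-fold. The uterus peak from 167669990 to 167670556 held 84 tags at 36.86-fold, with its summit 11 bp away. The depth-scaled ratio of uterus to liver tags was 1.89 (1.28 to 2.82). The uterus peak was the wider one, and per kb the ratio was 1.53. Across the 6 overlapping pairs, 4 thus had more uterus and 2 more liver tags when scaled to depth, but 2 of the 4 hold the same uterus peak. Counted by the 5 shared sites, with the liver tags at the widest one summed, 3 had more uterus and 2 more liver tags. These ratios compare 1 library with another, each with its own control and yield of immunoprecipitation, and were not tested as differences between tissues.

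**Figure D3:**
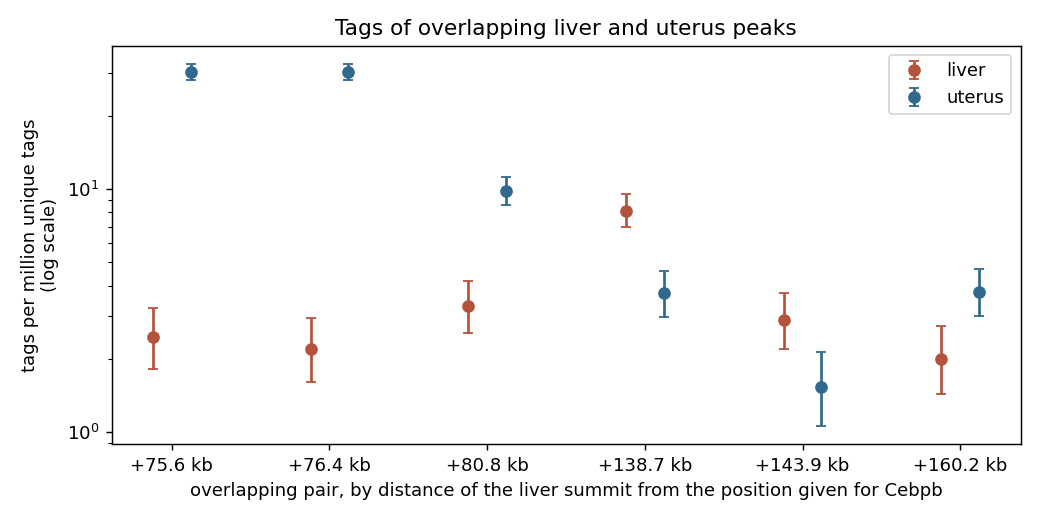
Tags per 1000000 unique tags (vertical, log scale) for the 6 overlapping pairs, ordered by distance of the liver summit from the position given for Cebpb, with bars for exact 95% Poisson intervals. Uterus is higher in the first 3 pairs and the last, liver at +138.7 and +143.9 kb, and the first pair of points shows the same uterus peak as the second.

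The liver-only peaks were led by a site far from the gene. The peak from 167828750 to 167829677 at +319.2 kb held 218 tags at 40.32-fold. It had the most tags and the highest enrichment of all 26 liver members, ranking 98th by tags and 101st by enrichment in the liver list, and no uterus summit lay within 21.7 kb of it. On the other side, the peak from 167241435 to 167242218 at -268.1 kb held 117 tags at 22.76-fold. Its nearest liver neighbour was 84.0 kb away, and the nearest uterus summit 32.5 kb. The peaks next to Cebpb with 96 and 85 tags, described above, also belong to the 8 liver-only peaks with the most tags.

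Most of the other leading liver-only peaks lay in groups at the ends of the window. The peak from 167905884 to 167906693 at +396.3 kb held 94 tags at 17.34-fold. The one from 167930096 to 167931210 at +421.0 kb held 91 tags at 14.57-fold and belonged to a group of 3 liver peaks within 5.0 kb that had no uterus summit closer than 29.0 kb. At the low end, another group of 3 spanned 13.3 kb. Its leading peaks, from 167144291 to 167145038 at -365.4 kb and from 167157712 to 167158491 at -352.1 kb, held 77 and 73 tags. The 20 liver-only peaks ranged from 25 to 218 tags and from 5.15- to 40.32-fold.

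The uterus-only peaks were led by a peak in a cluster of 5 below Cebpb. From 167419739 to 167420551, at -89.9 kb, it held 276 tags at 33.77-fold, more than 97.0% of the uterus list. The cluster, of summits at most 10 kb apart, spanned 10.3 kb, from -97.2 to -86.9 kb, and held 622 tags, and the peak from 167422713 to 167423690 in it held 110 tags at 24.77-fold. The nearest liver summit to the leading peak was 29.5 kb away. No liver peak was called between -119.3 and -50.0 kb.

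Above the gene, the leading uterus-only peaks adjoined the shared sites. The peaks from 167599513 to 167600764 at +90.1 kb and from 167602643 to 167603770 at +93.1 kb held 179 and 164 tags, at 20.07- and 10.22-fold. With the 2 shared uterus peaks just below them they formed a group of 4 that spanned 16.7 kb and held 1237 of the 4319 uterus tags in the window. The peak from 167623452 to 167624075 at +113.7 kb followed with 116 tags at 18.63-fold.

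The remaining leading uterus-only peaks were on the lower side. The peak from 167208957 to 167209701 at -300.6 kb held 136 tags at 19.04-fold, and the one from 167205913 to 167206795 beside it held 111 tags at 16.53-fold. The peak from 167378233 to 167379134 at -131.2 kb held 116 tags at 25.21-fold. The 38 uterus-only peaks ranged from 38 to 276 tags and from 6.45- to 50.11-fold.

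Along the window the kind of site alternated, in runs of 1 to 6 sites. Merging overlapping peaks left 63 sites, of which 5 were shared, 20 liver-only and 38 uterus-only. Read from low to high coordinates they formed 25 runs of a single kind, 11 of liver-only, 11 of uterus-only and 3 of shared sites. Many of these runs were a lone site, and the order was not tested against a random one. The order of the sites, with the distance of each summit and its tags, is given here from the low end to the high end.

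The lowest part of the window held well-separated blocks of 1 tissue. It opened with 4 uterus sites, at -434.7 kb (71 tags), -433.6 kb (67), -430.1 kb (45) and -423.9 kb (53). Then came 3 liver sites at -365.4 kb (77), -360.2 kb (70) and -352.1 kb (73), which were alike in tags and in width, at 745 to 780 bp. They were followed by 5 uterus sites at -333.0 kb (105), -330.4 kb (72), -308.8 kb (85), -303.5 kb (111) and -300.6 kb (136). The closest approach of the tissues in this stretch was 19.1 kb, between the sites at -352.1 and -333.0 kb. A lone liver site at -268.1 kb (117) and a lone uterus site at -208.0 kb (51) ended it.

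From there to Cebpb, uterus sites outnumbered liver sites. Uterus sites lay at -146.5 kb (54 tags), -140.3 kb (57), -137.3 kb (97) and -131.2 kb (116). A liver site at -119.3 kb (37) had relatively few tags for its 17-fold enrichment, and a uterus site at -114.3 kb (61) lay 5.01 kb from it. The longest run of the window held 6 uterus sites, from that one through the sites at -97.2 kb (104), -90.6 kb (45), -89.9 kb (276), -88.5 kb (87) and -86.9 kb (110). Closer to the gene the sites were single, at -50.0 kb in liver (55), -33.8 kb in uterus (101) and -24.5 kb in liver (42). The liver site at -24.5 kb and the uterus site at -33.8 kb were 9.31 kb apart.

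At the gene and above it, a liver block gave way to a uterus block before the shared sites began. The liver sites at +3.4 kb (96 tags), +5.6 kb (85) and +9.9 kb (49) were followed by 5 uterus sites at +13.6 kb (38), +29.1 kb (73), +33.3 kb (51), +44.8 kb (39) and +59.5 kb (41). All 5 held fewer tags than the median uterus peak of the window, which had 75. The site with the most tags in the window came next, at +76.4 kb (675 in uterus). It was followed by the shared site at +80.9 kb (219) and the uterus sites at +90.1 kb (179), +93.1 kb (164) and +113.7 kb (116). Tags thus fell from site to site over these 5 uterus sites.

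From +124.9 to +185.8 kb the kind of site changed at nearly every step. A weak liver site at +124.9 kb (33 tags) preceded the shared sites at +138.7 and +143.9 kb, which had more liver than uterus tags. Then came a uterus site at +149.2 kb (62), a liver site at +158.2 kb (57), the shared site at +160.2 kb, a liver site at +168.2 kb (52), a uterus site at +176.2 kb (99) and a liver site at +185.8 kb (25). The last of these had the fewest tags of all 69 members, and 0.635% of the liver list had fewer. Each single-tissue site of this stretch had a summit of the other tissue 2.06 to 11.2 kb away.

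The upper end of the window returned to separate blocks. It held 5 uterus sites at +247.9 kb (41 tags), +249.7 kb (89), +257.9 kb (75), +265.0 kb (71) and +266.3 kb (82), the nearest liver summit being 32.2 kb away. Liver sites at +298.4 kb (51) and +319.2 kb (218) were followed by uterus sites at +340.9 kb (46) and +388.5 kb (54). The window closed with 4 liver sites at +396.3 kb (94), +417.5 kb (57), +421.0 kb (91) and +422.5 kb (58). The first of these lay 7.87 kb from the last uterus site, and the other 3 were beyond the last uterus site by 29.0 kb or more.

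**Figure D4:**
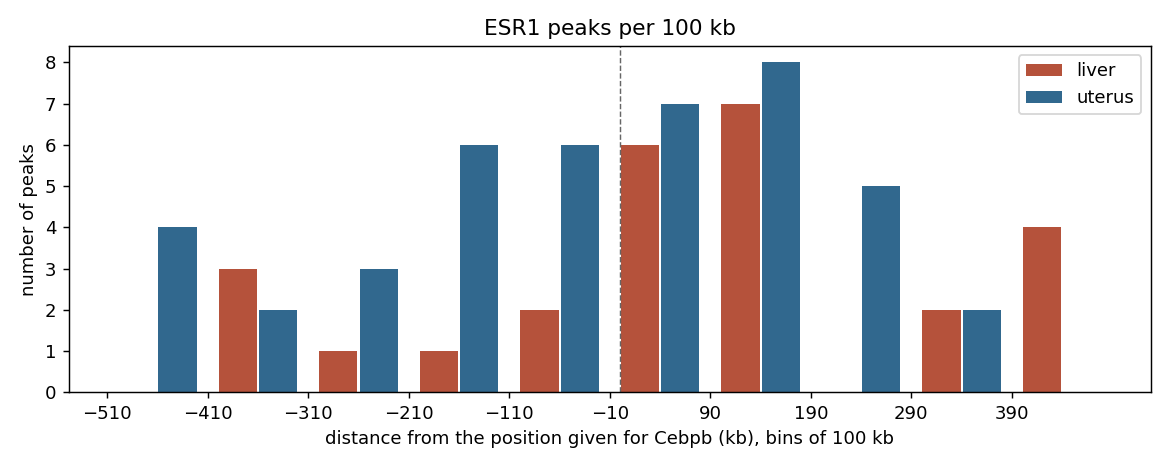
Number of liver and uterus peaks (vertical) in 10 bins of 100 kb along the window, by distance from the position given for Cebpb in kb (horizontal, dashed line at 0). Liver reaches 6 and 7 peaks in the bins from -10 to 190 kb, uterus 7 and 8 in the same bins, and the last bin has 4 liver and no uterus peaks.

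In both lists the bins with the most peaks were the ones from -10 to 190 kb. They held 13 of the 26 liver peaks and 15 of the 43 uterus peaks. Below the given position of Cebpb liver peaks were sparse, with 7 in all. A gap of 148.8 kb lay between neighbouring liver summits from -268.1 to -119.3 kb. Uterus peaks were nearly equal in number on both sides of that position, with 21 below and 22 above, though not even from bin to bin. Their widest gap was 92.6 kb, from -300.6 to -208.0 kb. In the bin from 190 to 290 kb there were 5 uterus peaks and no liver peak.

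Summits of one tissue lay close to each other. Of the 26 liver peaks, 17 had another liver summit within 10 kb, or 65.4% (Wilson interval 46.2 to 80.6), against 40.3% of the liver list. For uterus this was 32 of 43, or 74.4% (59.8 to 85.1), against 47.5%. Joining summits at most 10 kb apart gave 15 liver clusters, 6 of them with more than 1 peak, and 20 uterus clusters, 9 of them with more than 1 peak. Closeness is mutual, so the 17 liver peaks are the members of those 6 clusters and the 32 uterus peaks those of the 9. The intervals treat such peaks as independent and are too narrow, so they do not test either share against its list. A dense window brings summits close by its density alone, and that part was not separated here.

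Of the single-tissue peaks of the window, 43 of 58 had no summit of the other tissue within 10 kb. The share that did have one was above that of the whole list in both tissues. Of the 20 liver-only peaks, 8 had a uterus summit within 10 kb, or 40.0% (21.9 to 61.3), against 27.8% of the liver-only peaks of the list. Of the 38 uterus-only peaks, 7 had a liver summit within 10 kb, or 18.4% (9.22 to 33.4), against 7.97%. The liver background value lies within the interval of the members and the uterus value just outside it. These intervals treat neighbouring peaks as independent, though many lie in clusters, and the window was proposed with its counts known. They therefore do not test whether either share is above that of its list. Here too the density of the window was not separated from these shares. Among the liver-only peaks the closest approach was 2.06 kb, between the liver peak at +158.2 kb and the shared uterus summit at +160.3 kb.

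In strength, the liver members were close to their list, and the uterus members had higher medians than theirs. The median liver peak of the window held 57.5 tags, against 58 in the whole list, at a fold enrichment of 12.4 against 11.2. The median uterus peak held 75 tags against 55, at 17.5-fold against 14.7-fold, and was 630 bp wide against 579. In the other 5 windows with the most liver peaks, the median uterus peak held 55 to 81 tags. Per kb of peak the uterus medians were 115 and 91.4 tags. Of the liver members, 3 of 26 had more tags than at least 90% of their list, or 11.5%, against 9.92% of all liver peaks. Of the uterus members, 5 of 43 did, or 11.6%, against 9.95%.

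At the edges of the window, the nearest members lay well inside and the nearest other peaks mostly well outside. The first liver summit inside was 144.6 kb from the lower edge, with 77 tags, and the nearest outside was 213.5 kb away, with 71 tags. The first uterus summit inside was 75.3 kb from that edge, with 71 tags, while one with 40 tags lay only 1.3 kb outside. Above, the last members were 67.5 kb (liver, 58 tags) and 101.5 kb (uterus, 54 tags) from the edge. A shared site followed 33.0 kb outside, with 58 liver and 65 uterus tags.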

How the data were processed

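Per the submitters' processing notes, the authors called peaks with MACS 1.3.7.1 on mm9. Per the file headers, each ESR1 library was called alone against 1 control, with a p cutoff of 1e-10 and a band width of 300 bp. The aligner was not given in the sources used here. Deposited tags per peak are raw counts. Fold enrichment, as deposited, is a ratio of ChIP signal to local control level. The deposited MACS score is −log10 of p, multiplied by 10. The false discovery rate was deposited as a percent, at most 0.26 in liver and 0 in uterus within the window.

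From these, summit positions (start plus summit minus 1), overlaps, distances, clusters and counts per window of 1 Mb were computed on the full lists. Windows ran from the chromosome start to the last summit of either list on each chromosome. Tags were divided by the unique tags of their library and given per 1000000. Intervals are exact Poisson, Wilson or exact conditional (Clopper-Pearson). The overlap and cluster steps were tested on simulated data. No test between tissues was made. Every peak of the window was counted. Given in full were the shared pairs, up to 8 liver-only and 8 uterus-only peaks with the most tags, and the nearest peaks on each side of Cebpb. The window, lists and rules were chosen with earlier results of these data known. Counts near other C/EBP genes and near liver and uterus marker genes need an mm9 annotation and were not analysed here. Computation used Python 3.11.15 with scipy 1.17.1, pandas 2.3.3 and numpy 2.4.6, and plots matplotlib 3.10.9.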

Additional observations from a re-analysis of the deposited data

Results flagged for a closer look

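Counted by peak, shared and single-tissue peaks of the window stood in opposite order in the 2 tissues. The median tags of shared minus single-tissue peaks were -4 in liver (53.5 against 57.5) and 11.5 in uterus (84 against 72.5). For fold enrichment the differences were -1.03 in liver and 9.91 in uterus. The liver order for tags depends on counting by peak. The shared liver peaks with 49 and 44 tags overlap the same uterus peak and hold 93 in sum. Counted by site, the shared liver sites held 40, 58, 66, 93 and 163 tags. Their middle value of 66 lies above 57.5, which is the order seen in uterus. With 6 shared liver and 5 shared uterus peaks from 1 library each, the opposite directions were not tested.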

How the results depend on the processing

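No paired analysis was possible because each tissue had 1 ESR1 library, and for the same reason no library could be left out. Of 48 alternative values 33 stayed within the limits set, which were 1.5 times for counts and distances and the Wilson interval for shares of windows, and 15 moved. The counts of peaks were 22 and 27 (liver) and 46 and 40 (uterus) with the window shifted 100 kb down and up. When both lists were limited to MACS scores of 200 or more, 12 liver and 28 uterus peaks and 8 liver clusters were left, with 1 shared peak in each list, while 99.7% and 99.2% of windows still had fewer liver and uterus peaks. Shared uterus peaks numbered 3 at a fold enrichment of at least 10, and 3 with the uterus list shortened to the length of the liver list, which left 12 uterus peaks. These cuts remove peaks by construction. Joining summits up to 20 kb apart gave 12 uterus clusters. With Cebpb placed 5 kb higher or lower, the nearest liver summit was 0.6 or 8.4 kb away. The nearest uterus summit was 8.6 kb away with the higher position and 29.1 kb away at a score of at least 200. Counts within 10 and 50 kb of the shifted positions were added after seeing the data: within 10 kb there was 1 liver peak with the lower position and 1 uterus peak with the higher one, against 3 and 0. In each of these cases the nearest liver summit was the nearer one. Peaks under the p cutoff are not in the lists, so a missing partner is not shown to be unbound.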
